A study of Mus musculus with 2 samples.

Results

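Tissue factor, the plasminogen activators and the receptors and inhibitors that belong with them were followed in squamous organoids of mouse forestomach, the squamous-lined part of the rodent stomach. The set held 9 genes of 29456 on the array: F3, Tfpi, Tfpi2, Thbd, F2r, F2rl1, Plau, Plaur and Plat. They were picked by symbol, with their values in these 2 libraries already known, so their differences are descriptions and no count over them is a test. Each of the 9 had 1 probe set.

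The SOX2 KO culture was grown from a mouse line written Krt5CreER/+; Sox2Δ/Δ; ROSA26tdTomato/+. In such mice tamoxifen activates a Cre recombinase driven by the Krt5 promoter of squamous cells, deletes Sox2 and switches on the tdTomato reporter. The WT control culture is labelled wildtype, and in the study's animal work the controls were littermates that carried no Krt5CreER. Both cultures grew in Matrigel droplets in a keratinocyte medium with EGF, pituitary extract and the kinase inhibitor Y-27632. Age was not given in the sources used here. With 1 library in each group, on 1 Affymetrix Mouse Gene 2.0 ST array each, genotype cannot be told apart from mouse, culture or array, and no replicate check was possible and no p-value is given.

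Tissue factor is a membrane protein that binds factor VIIa and starts the clotting cascade, and it is known from the epidermis and other epithelia. The cascade ends in thrombin, which signals to cells by cleaving protease-activated receptors. Plasminogen activators turn plasminogen into plasmin, the protease that dissolves fibrin, and urokinase does so while held at the cell surface by its receptor. Keratinocytes use parts of both systems during wound repair.

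Values are log2 probe set signals. Over all probe sets the SOX2 KO library had a median of 3.29 and the WT control library one of 3.30. Genes counted as past the floor reached a signal of 3.3, the median of all genes, in at least 1 library, which 15983 genes did. Olfactory receptor genes (1127), taken as unexpressed in these organoids, gave 2 stand-ins: 95% of their signals lay below 3.84, called the background level here, and the SD of their differences, called the background SD, was 0.26. Of these receptor genes 8 were at least 2-fold higher in SOX2 KO and 0 at least 2-fold lower, so the SD does not bound single differences. Sox2 itself had a signal of 2.53 in the SOX2 KO library and 5.74 in the WT control library, at least 3.72-fold lower when counted down to the background level. Differences are SOX2 KO minus WT control throughout. Counts past 2-fold use the measured signals, and where a gene of a list falls short of 2-fold against the background level, this is said beside the list's count. The shares over all genes use measured signals alone.

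F3, which encodes tissue factor, was the 1 member past 2-fold. Its signal was 4.34 in the SOX2 KO library and 6.39 in the WT control library, a difference of -2.05 or 4.14-fold lower. Both values stood above the background level, although 2.75% of olfactory receptor signals were as high as the SOX2 KO value and 0% as high as the WT control value. Among the 15983 genes past the floor the difference was the 12th lowest. Fewer cells with F3 and less F3 RNA per cell cannot be told apart in such bulk RNA.

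The F3 probe set has the same span as the annotated gene, chr3:121723537-121735052 on the plus strand (mm10). Abcd3, the neighbouring annotated gene downstream, encodes a peroxisomal fatty acid transporter and starts 23857 bases beyond F3. It had 5.82 in the SOX2 KO library and 5.73 in the WT control library. On the other side 4930432M17Rik was below the background level in both, at 2.61 in SOX2 KO and 2.33 in WT control, so a decrease could not have been seen there.

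The promoter of F3 is shown because F3 carries the difference in this set. The sequence below is the 250 bases before its annotated start, chr3:121723287-121723536 on the plus strand (RefSeq, GRCm38.p6, the same assembly as mm10). Matches to TGANTCA, called AP-1 letters here and looser than the AP-1 consensus TGA(C/G)TCA, are in capitals.
F3 promoter: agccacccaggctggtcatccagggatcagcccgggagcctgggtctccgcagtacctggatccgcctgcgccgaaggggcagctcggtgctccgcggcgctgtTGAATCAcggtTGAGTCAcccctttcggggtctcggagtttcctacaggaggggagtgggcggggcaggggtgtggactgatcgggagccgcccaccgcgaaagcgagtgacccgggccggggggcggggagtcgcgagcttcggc
Its GC content was 70%, and the median of such windows was 52.4%. The 2 matches, TGAATCA and TGAGTCA, begin 146 and 135 bases before the start and lie 4 bases apart. Only TGAGTCA has the consensus letters. TGANTCA reads alike on both strands. Of 32544 windows from 250 bases before a start to 50 after it, 7.79% held at least 1 match and 0.464% held 2 or more. The core letters of SOX factors, ACAATG, searched on both strands as ACAATG and CATTGT, had 0 matches in the F3 window and at least 1 in 12.4% of all windows. These are letter matches in a short window, not binding sites.

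Promoter windows were at hand for 5 of the 9 members. Those of F2r and Plaur held 1 AP-1 match each, as did 1 of the 3 Tfpi2 windows. Of the 2 Tfpi windows 1 held 2 SOX matches. The 3 genes with AP-1 letters in their only window differed by -2.05 (F3), 0.47 (F2r) and -0.23 (Plaur).

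The inhibitors of tissue factor lay at background. Tfpi encodes the Kunitz-type inhibitor of the factor VIIa and tissue factor complex, and its signal was 2.60 in the SOX2 KO library and 2.43 in the WT control library. Tfpi2, a related Kunitz inhibitor that acts mainly on plasmin and trypsin, had 3.08 in both. Both genes lay below the floor, where 17.1% or more of olfactory receptor signals were as high, so a decrease could not have been seen at these signals. Thbd, encoding thrombomodulin, the surface cofactor that turns thrombin toward activation of protein C, had 3.65 in the SOX2 KO library and 3.60 in the WT control library, also under the background level in both.

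**Figure D1:**
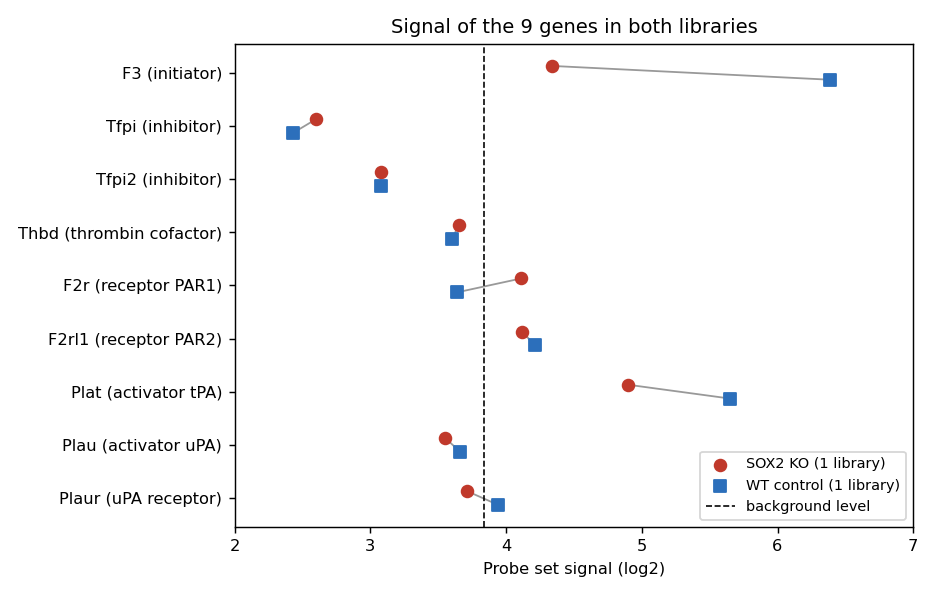
Log2 probe set signal (horizontal axis) of the 9 genes in the SOX2 KO library (circles) and the WT control library (squares), 1 library each, with the background level of 3.84 as a dashed line. F3 stands at 4.34 in SOX2 KO and 6.39 in WT control, Plat at 4.90 and 5.65, and the other 7 genes differ between the libraries by 0.47 or less.

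The receptors for thrombin and related proteases lay close to the background level. F2r encodes PAR1, the main thrombin receptor of many cell types. It had 4.11 in the SOX2 KO library and 3.64 in the WT control library, where it was under the background level, so it was at least 1.2-fold higher. F2rl1 encodes PAR2, the receptor of epithelial cells for trypsin-like proteases and for the tissue factor complex, and it had 4.12 in the SOX2 KO library and 4.21 in the WT control library. This difference of -0.09 was smaller than the background SD of 0.26, whereas that of F2r (0.47) was larger. The genes are neighbours on chromosome 13, with their probe sets 76.5 kb apart. The other 2 receptors of the family, F2rl2 (3.58 in SOX2 KO and 3.35 in WT control) and F2rl3 (3.23 in both), were under the background level.

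Among the plasminogen activators Plat had the larger difference. Plat encodes tissue-type plasminogen activator, and its signal was 4.90 in the SOX2 KO library and 5.65 in the WT control library, a difference of -0.75 or 1.68-fold lower. Both values were above the background level, and the difference ranked 335th from the lowest among genes past the floor. Plau, which encodes urokinase, had 3.55 in the SOX2 KO library and 3.66 in the WT control library, and both were under the background level. Plaur, its glycolipid-anchored receptor, had 3.71 in the SOX2 KO library and 3.94 in the WT control library. The Plaur difference of -0.23 was smaller than the background SD, and the SOX2 KO value was under the background level.

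Over the 9 genes 5 were lower in the SOX2 KO library, 3 higher and 1 equal to 2 decimals. F3, Plat and F2r differed by more than the background SD. This is a loose cut for which no share over all genes is given here, and it calls no gene changed. The F2r difference ranked 1501st from the highest among the genes past the floor. At 2-fold, 1 of the 9 was lower, beside 0.795% of all genes past the floor, and 0 were higher, beside 2.01%. At 1.5-fold, 2 were lower, beside 4.43%, and 0 higher, beside 6.45%. The median difference was -0.09, against 0.00 for all genes past the floor. In all, 7 of the 9 passed the floor, 5 exceeded the background level in at least 1 library, and F3, Plat and F2rl1 exceeded it in both.

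**Figure D2:**
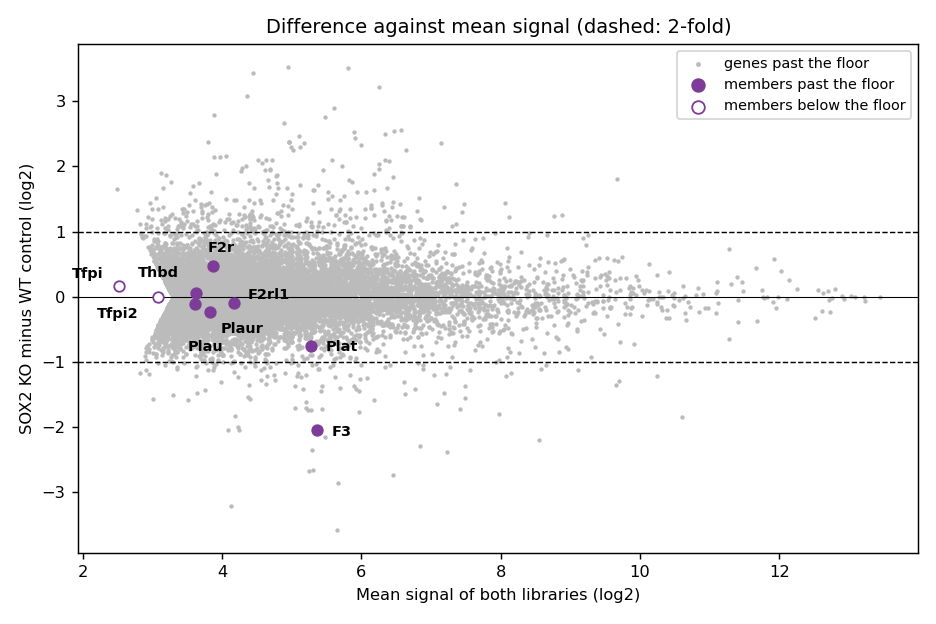
SOX2 KO minus WT control difference (log2, vertical axis) against the mean signal of both libraries (log2, horizontal axis), with 15983 genes past the floor in grey and the 9 members in purple, open where below the floor. Dashed lines mark 2-fold. F3 lies at -2.05, Plat at -0.75, and the rest between -0.23 and 0.47.

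Areg and Wfdc5 were among the 3 genes most like F3 by distance between their pairs of log2 signals over the 2 libraries. Areg, which encodes the EGF receptor ligand amphiregulin, had 4.40 in the SOX2 KO library and 6.55 in the WT control library, a distance of 0.17. Wfdc5, of the WAP family of protease inhibitors, had 4.41 in SOX2 KO and 6.15 in WT control (distance 0.25). With 2 libraries this likeness says only that the pairs of values were close.

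The rest of the clotting cascade, much of which the liver supplies to plasma, was near background. Of 15 further clotting factor genes measured, 1 exceeded the background level. That was F7, the partner of tissue factor, with 4.41 in the SOX2 KO library and 4.82 in the WT control library. F10, the substrate of the complex, had 2.66 in SOX2 KO and 3.23 in WT control, both under the background level. No member of this list passed 2-fold, and the median over the 5 past the floor was -0.10. Of 8 other anticoagulant genes 2 exceeded the background level. Procr, the receptor for protein C, had 4.21 in SOX2 KO and 4.15 in WT control, and Serpina10, an inhibitor of factor Xa, had 4.10 in SOX2 KO and 4.04 in WT control. None of these 8 passed 2-fold, and the 4 past the floor had a median of 0.03.

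Of the inhibitors of plasminogen activators described here, the 2 that exceeded the background level in at least 1 library had the lower signal in SOX2 KO. Serpinb2, encoding PAI-2, a urokinase inhibitor that is abundant in keratinocytes, had 6.71 in the SOX2 KO library and 8.26 in the WT control library, 2.93-fold lower. Its probe set spans chr1:107511423-107525600 (mm10). A separate probe set annotated to Serpinb10 as well as Serpinb2 had 8.92 in SOX2 KO and 8.63 in WT control. It lies beyond the annotated end of Serpinb2 and inside Serpinb10, so it is not read as Serpinb2 here. Serpine2, a protease nexin that also inhibits urokinase and thrombin, had 3.61 in SOX2 KO and 4.30 in WT control, at least 1.37-fold lower. Plg, the plasminogen gene itself, was under the background level with 3.18 in SOX2 KO and 3.24 in WT control. Of the 7 genes listed 1 was at least 2-fold lower, beside 0.795% of all genes past the floor, and 0 higher, beside 2.01%. The 3 past the floor had a median of -0.69, which was -0.06 over all 7.

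Surface partners of plasminogen and urokinase stayed within 2-fold. Anxa2 and S100a10, whose products form the annexin A2 complex that binds plasminogen and tissue-type activator, had 7.01 and 8.48 in the SOX2 KO library, against 7.55 and 8.60 in the WT control library. Lrp1, an endocytic receptor that clears activators bound to their inhibitors, had 4.97 in SOX2 KO and 4.61 in WT control. Among the 10 partners, differences larger than the background SD went in both directions, and no share over all genes is given for that cut. Anxa2 (-0.54), the collagen receptor gene Mrc2 (-0.45) and the integrin gene Itgav (-0.39) were lower, and Lrp1 (0.36) and the plasminogen receptor gene Plgrkt (0.47) higher. None passed 2-fold, and the 9 past the floor had a median of -0.04.

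Proteases that can act on PAR2 or on urokinase differed both ways. Klk14, a kallikrein-related peptidase known to cleave PAR2, had 3.87 in the SOX2 KO library and 7.44 in the WT control library, 11.9-fold lower. Its SOX2 KO value was only just above the background level, and 4.92% of olfactory receptor signals were as high, so the size of this fold is uncertain. Tmprss11d, the airway trypsin-like protease, had 5.08 in SOX2 KO and 6.85 in WT control, 3.41-fold lower. Klk5, another kallikrein, had 4.07 in SOX2 KO and 3.0 in WT control, at least 1.17-fold higher. St14, which encodes matriptase, an activator of pro-urokinase and PAR2, had 5.17 in SOX2 KO and 4.96 in WT control. Its inhibitor genes Spint1 and Spint2 had 6.84 and 7.93 in SOX2 KO, against 6.45 and 7.64 in WT control. Of the 11 genes of this list, Spint1 and Spint2 included, 2 passed 2-fold on the lower side, beside 0.795% of all genes past the floor. On the higher side 1, Klk5, did so in measured signal, beside 2.01%. The 11 genes, proteases and inhibitors together, had a median of 0.07. Against the background level 0 were 2-fold higher. That median was -0.18 when both arrays had to pass the floor and -0.04 with quantile scaling.

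Growth factor genes whose products these proteases can release or activate, with the receptor gene Met, held no difference past 2-fold above the background level. Tgfb1 had 6.37 in SOX2 KO and 6.04 in WT control, and Met, the receptor of hepatocyte growth factor, had 5.78 in SOX2 KO and 5.21 in WT control. Tgfb3 was the 1 gene of the 7 past 2-fold (3.45 in SOX2 KO and 2.12 in WT control), with both values under the background level, and the 6 past the floor had a median of 0.10, which was -0.13 with the floor on both arrays. Across the 7 lists of the wider system, 60 genes were measured and 39 passed the floor. Of these 39, 3 passed 2-fold on the lower side (Serpinb2, Klk14 and Tmprss11d), beside 0.795% of all genes past the floor. On the higher side 2 did so in measured signal (Klk5 and Tgfb3), beside 2.01%. The 39 genes had a median of -0.04. Against the background level the 3 lower genes still passed 2-fold and 0 higher ones did.

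Plaur shares its protein fold with the LY6 family, several of which are abundant in squamous epithelium. Of 14 such genes 2 passed 2-fold on the lower side in measured signal, beside 0.795% of all genes past the floor. On the higher side 0 did, beside 2.01%, and the 13 past the floor had a median of -0.23. Lypd5 had 4.47 in the SOX2 KO library and 5.68 in the WT control library, and Ly6c1 had 2.81 in SOX2 KO and 3.89 in WT control, only just above the background level, which makes it at least 1.03-fold lower. The genes with the strongest signals, Psca (12.62 in SOX2 KO and 12.85 in WT control) and Ly6a (11.88 in SOX2 KO and 11.44 in WT control), were within 2-fold.

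**Figure D3:**
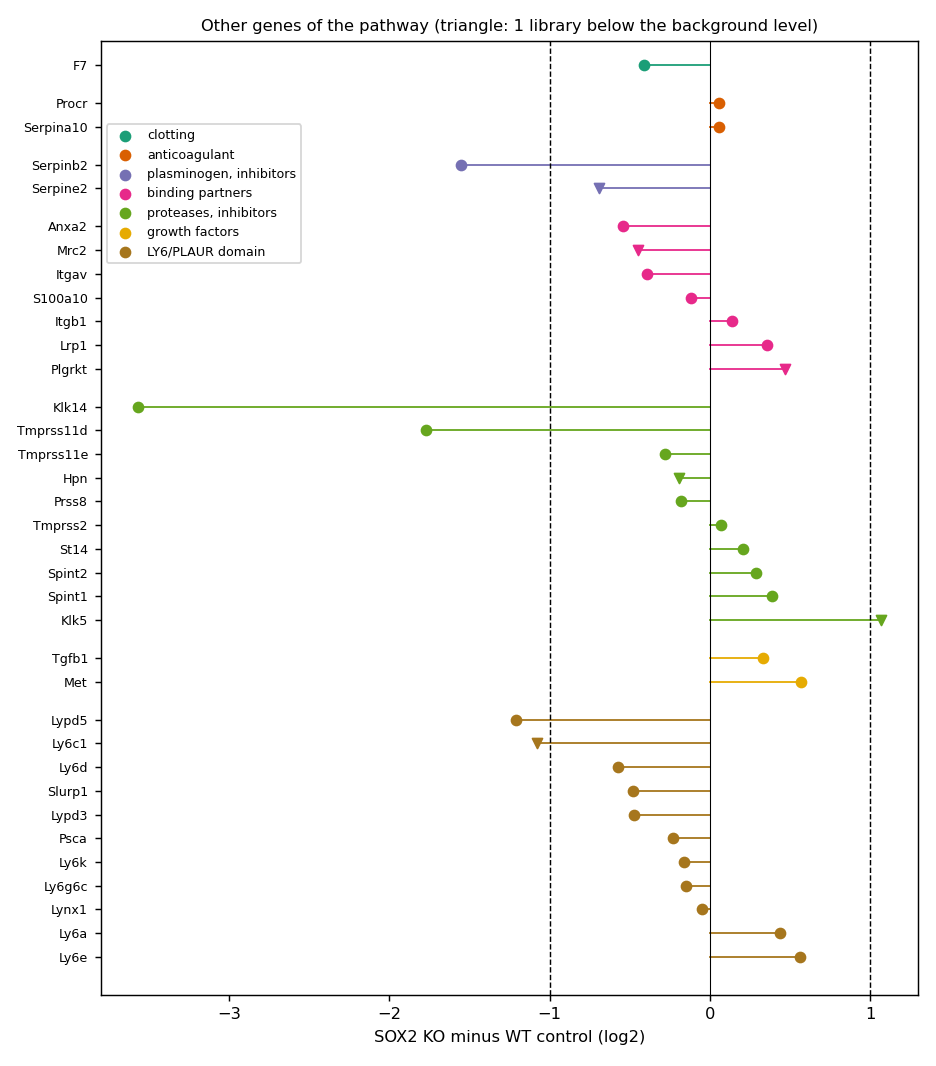
SOX2 KO minus WT control difference (log2, horizontal axis) of the 35 further genes of the system and of the LY6/PLAUR-domain family that exceeded the background level in at least 1 library, coloured by list. Triangles mark the 6 genes with 1 library under that level and dashed lines mark 2-fold. Serpinb2, Klk14, Tmprss11d, Lypd5 and Ly6c1 lie past 2-fold on the lower side and Klk5 on the higher side.

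Marker genes of the cell types that could carry these transcripts were read in the same libraries. All 10 squamous markers exceeded the background level in both. Krt5 (8.71 in SOX2 KO and 8.86 in WT control) and Krt14 (8.19 in SOX2 KO and 8.16 in WT control), keratins of the basal layer, were close, whereas the suprabasal keratin Krt13 had 8.97 in SOX2 KO and 10.33 in WT control and Krt6a had 7.47 in SOX2 KO and 8.69 in WT control. Differences of the others were -0.97 (Krt4), -0.55 (Dsp), -0.48 (Dsg3), -0.13 (Trp63), -0.07 (Perp) and 0.02 (Sfn). Of the 10 markers 8 were lower in SOX2 KO and 2 higher, to any extent. Sums of linear signals over a list are given as descriptions, since probe sets differ in brightness and values at background add to them. The summed squamous signal was 2992 in SOX2 KO and 4533 in WT control, and without Krt13 it was 2491 in SOX2 KO and 3246 in WT control. The part of these keratin differences in the F3, Plat and Serpinb2 values was not tested.

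Endothelial cells, a usual source of Plat, Thbd and Tfpi, were hardly visible. Of 10 endothelial markers 0 exceeded the background level in the SOX2 KO library and 2 in the WT control library, Egfl7 (3.71 in SOX2 KO and 4.23 in WT control) and Kdr (3.65 in SOX2 KO and 3.88 in WT control). Pecam1 and Cdh5, which define the type, were under it in both. The summed endothelial signal, mostly background, was 90.73 in SOX2 KO and 100.4 in WT control.

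Most smooth muscle markers were higher in the same library as F2r, 9 of the 10 to any extent. In measured signal 4 were at least 2-fold higher, beside 2.01% of all genes past the floor. Of these 4, 3 did so against the background level (Cnn1 was at least 1.61-fold higher). Lmod1 was lower, with 3.58 in SOX2 KO and 4.07 in WT control, and Synm differed by 0.02. The summed smooth muscle signal was 364.4 in the SOX2 KO library and 129.7 in the WT control library. Acta2, smooth muscle actin, had 7.05 in SOX2 KO and 4.16 in WT control, and Myh11, smooth muscle myosin, had 6.26 in SOX2 KO and 3.97 in WT control. Without Acta2 the smooth muscle sum was 231.9 in SOX2 KO and 111.8 in WT control. Of 10 fibroblast markers 1 passed 2-fold, Dcn with 5.90 in SOX2 KO and 2.83 in WT control, and the summed signal was 170.6 in SOX2 KO and 106.9 in WT control. Without Dcn the sums were 110.9 in SOX2 KO and 99.81 in WT control, and of the other 9 markers 5 were lower. Of these only Thy1 (3.45 in SOX2 KO and 4.04 in WT control) differed by more than the background SD. The higher ones all did: Fn1 (0.73), Col1a2 (0.64), Pdgfrb (0.32) and Col1a1 (0.30). Fn1 and Pdgfrb were under the background level in both libraries. Smooth muscle cells and fibroblasts are known to use PAR1, and their part in the F2r value was not tested. Monocytes and macrophages are another known source of F3 and Plaur. Of 10 of their markers Lyz2 was the 1 past 2-fold in measured signal (4.54 in SOX2 KO and 2.80 in WT control), and it was at least 1.62-fold higher against the background level. Cd68, a lysosomal protein gene, had 7.39 in SOX2 KO and 7.18 in WT control, Fcer1g had 4.15 in SOX2 KO and 4.08 in WT control, and Ptprc, the pan-leukocyte marker, was under the background level in both. The summed signal was 262.5 in SOX2 KO and 222.8 in WT control, and without Lyz2 it was 239.2 in SOX2 KO and 215.8 in WT control. Without Cd68 but with Lyz2 it was 94.74 in SOX2 KO and 77.74 in WT control. Of the 10 markers 8 were higher in SOX2 KO and 2 lower. The lower ones were Csf1r (3.22 in SOX2 KO and 3.57 in WT control) and Cd14 (3.19 in SOX2 KO and 3.35 in WT control), under the background level in both libraries. Only 3 of the 10, Lyz2, Cd68 and Fcer1g, exceeded that level in at least 1 library. Differences larger than the background SD were held by 3 of the 10, Lyz2, Ptprc (0.33) and Csf1r (-0.35). Of 7 platelet and megakaryocyte markers measured 1 was at least 2-fold higher, the chemokine gene Ppbp (7.43 in SOX2 KO and 6.24 in WT control), the defining gene Pf4 was under the background level in both, and the summed signal was 245.5 in SOX2 KO and 156.9 in WT control. Without Ppbp the sum was 73.07 in SOX2 KO and 81.28 in WT control. The other 6 markers were lower in SOX2 KO, each by less than the background SD.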

How the data were processed

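RNA from 1 SOX2 KO and 1 WT control forestomach organoid culture was labelled with the WT Plus assay and read on a Mouse Gene 2.0 ST array (Affymetrix) per culture. Normalization was done by the authors with Transcriptome Analysis Console. They deposited log2 signals for 34472 probe sets, rounded to 2 decimals, with mm10 annotation per the file headers. Neither the software version nor the way probes were summarized is given in the sources used here. The deposited signed fold changes and p-values (0 below 1) are the authors' own comparison and were not used. The series value table held the same values (0 probe sets differed).

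Genes were taken from the 29971 probe sets with 1 symbol, using the probe set of highest mean signal. Differences are SOX2 KO minus WT control. Where 1 library lay under the background level of 3.84 (the 95th percentile of olfactory receptor signals), that level replaced the dimmer value and the fold is given as at least N-fold. With 1 library per group no test was run, and the number of arrays limits the precision. Signals of different probe sets are not comparable as amounts of RNA. The 9 members and all gene lists were chosen with earlier results of these data known. Named genes were the members, Sox2, the 3 genes nearest F3, its neighbours on the array, and in each list genes past 2-fold and the 2 of highest signal, of which not all are reported here. F7, F10, Procr, Serpina10, Serpine2, Plg, Lrp1, St14, Spint1, F2rl2, F2rl3, Mrc2, Itgav, Plgrkt, Krt5, Krt14, Krt4, Dsp, Dsg3, Trp63, Sfn, Lmod1, Synm, Thy1, Fn1, Col1a1, Col1a2, Pdgfrb, Cd68, Fcer1g, Csf1r, Cd14, Kdr, Pecam1, Cdh5, Ptprc and Pf4 were added for their roles or values after their values were seen where that rule did not select them. The settings tried in turn were loess scaling (span 0.3), quantile scaling, centring each array on its median, the mean of probe sets, the series value table, 1.5-fold and 3-fold thresholds, no floor and a floor on both arrays. A separate 2-fold count was tried on simulated data, with changes larger than 2-fold planted only in bright genes. It does not test the counts for genes near the background level. Python 3.11.15, pandas 2.3.3, numpy 2.4.6, scipy 1.17.1, statsmodels 0.14.6 and matplotlib 3.10.9 were used. Counts against the background level, and sums of markers without 1 gene, were added after seeing the data.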

Additional observations from a re-analysis of the deposited data

Results flagged for a closer look

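A probe set annotated to both Serpinb10 and Serpinb2 gave a signal outside the genes compared above. It had 8.92 in the SOX2 KO library and 8.63 in the WT control library, a difference of 0.29, which is above the WT control value by more than the background SD of 0.26. The probe set annotated to Serpinb2 alone had 6.71 in SOX2 KO and 8.26 in WT control. The shared probe set spans chr1:107529003-107549271 (mm10). This lies beyond the annotated end of Serpinb2 at 107525600 and inside the annotated span of Serpinb10, chr1:107528994-107560742. The shared probe set is therefore not read as a second Serpinb2 signal.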

How the results depend on the processing

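No paired analysis was possible because only 1 library represented each genotype, which also prevented leaving any library out. A value was called moved when it shifted by more than the background SD of 0.26, or a count by more than 1.5 times. Of 180 alternative values 173 stayed within these limits and 7 moved. The F3 difference ranged from -2.15 to -2.04 over the 3 scalings, that of Plat from -0.84 to -0.74 and that of F2r from 0.46 to 0.48. The 1.5-fold threshold gave 2 members lower, 708 genes lower and 1031 higher, and the 3-fold threshold gave 28 genes lower and 80 higher, as the thresholds themselves require. With no floor the median of plasminogen and the inhibitors of its activators was -0.06, since 4 further genes entered, and with the floor on both arrays it was -1.12, since fewer genes were left. The median of the proteases that act on PAR2 or urokinase changed sign with quantile scaling (-0.04) and with the floor on both arrays (-0.18), as did that of the growth factors with the floor on both arrays (-0.13). No other list median changed sign. The series value table holds identical values and tests nothing, and the 9 members had 1 probe set each, so the mean of probe sets could not move them. Signals under the background level of 3.84, which hold Tfpi, Tfpi2, Thbd and Plau in both libraries, cannot show a decrease.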
